A study of Mus musculus with 4 samples.

Results

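The 7 genes described here encode the coat of the mouse egg and the surface proteins that meet the sperm. They are Zp1, Zp2 and Zp3, which encode the zona pellucida glycoproteins, Astl, which encodes the protease ovastacin, Izumo1r, which encodes the sperm receptor JUNO, and the tetraspanin genes Cd9 and Cd81. They were chosen by gene symbol and not by a cutoff on their values, with earlier results of these data known. All 7 of the 7 were found among 55453 genes of the deposited count table. Messenger RNA had been sequenced from mouse oocytes at the germinal vesicle stage, the prophase arrest that precedes maturation. The study compared 2 libraries of wild-type control oocytes with 2 libraries of Parp12 knockdown oocytes, all separated directly from the ovary, to ask how the transcriptome differs when Parp12, a gene of the ADP-ribosyltransferase family, is reduced. The sources used here give no strain, age, number of oocytes per library or way of making the knockdown.

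The zona pellucida is an extracellular coat that the growing oocyte secretes around itself. ZP2 and ZP3 build its filaments and ZP1 cross-links them, and sperm bind to the coat through ZP2. Ovastacin is stored in cortical granules beneath the egg membrane and, once released at fertilization, cleaves ZP2 so that further sperm no longer bind. On the egg membrane itself, JUNO, a protein of the folate receptor family held by a glycosylphosphatidylinositol (GPI) anchor, binds IZUMO1 of the sperm, and CD9 is needed for the membranes to fuse, with CD81 as a related tetraspanin.

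Library totals ran from 35805122 to 45230773 counts, and values below are counts per 1000000 counts of the library (CPM) unless they are said to be per length. In the check of the labels, Parp12 counts were 14279 and 9419 in control libraries and 32 and 86 after knockdown, a log2 fold change of -7.51 (adjusted p 1.27e-07 by the quasi-likelihood test of edgeR and 0.280 by limma-voom). The labelled cell type matched its markers: each of 11 listed oocyte genes was detected, together at 27391 to 29215 CPM, with a median log2 fold change of 0.02 and no call. Padi6, the highest, had 5920 to 6858 CPM, and Mos, with the smallest p, had 417 and 444 CPM in the control libraries and 367 and 383 CPM after knockdown. Markers of granulosa and cumulus cells, the somatic cells around the oocyte, summed to between 555 and 612 CPM in the controls and to between 501 and 581 CPM in the knockdowns, and 8 of the 21 genes were at 0 in all 4 libraries, among them Foxl2, Amh, Fst and Inhba. Most of that sum came from Serpine2, at 366 to 442 CPM, and Cyp11a1, with the smallest p, had 70, 70, 11 and 5 counts. Other markers of the list had counts in every library: Nr5a2 at 90.8 to 117 CPM, Cyp19a1 at 23.8 to 29.3 and Fshr at 1.70 to 5.36. Markers of theca, stroma, endothelium and blood summed to between 108 and 115 CPM, most of it from Pecam1 at 91.6 to 101 CPM, and 5 of 16 were at 0. Cd68, with the smallest p of these, had at most 3.05 CPM. No marker of either list was called, and their part in the results was not tested. At an unadjusted p under 0.05 edgeR listed Mos among the 11 oocyte markers and Cyp11a1 among 7 tested granulosa and cumulus markers, both lower. It listed 2.57% of all tested genes in that direction, and no marker of theca, stroma, endothelium and blood.

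The egg coat and sperm-binding genes took 0.941% and 1.003% of all counts in the control libraries and 1.033% and 1.085% in the knockdowns. Compared per length, as CPM per kilobase of summed exons, Zp3 stood first with a mean of 2092 over the 4 libraries, followed by Zp2 at 1504, Zp1 at 808, Astl at 502, Izumo1r at 111, Cd9 at 71.6 and Cd81 at 0.208. Among all genes of the table these levels ranked 7th for Zp3, 12th for Zp2, 35th for Zp1, 54th for Astl, 388th for Izumo1r, 672nd for Cd9 and 15233rd for Cd81. The order was the same in 4 of 4 libraries for every pair of neighbours, and the ranges over the libraries of no 2 neighbours overlapped. The nearest neighbours were Zp3 and Zp2, where Zp3 was 1.33 to 1.43 times as high per length within a library. The widest gap was between Cd9 and Cd81, at 185 to 674 times in the libraries where Cd81 had counts. With the length of the longest annotated transcript in place of summed exons the order was unchanged, while Izumo1r came to 199.8, Cd9 to 119 and Cd81 to 0.373, each more than 1.5 times its value by summed exons.

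**Figure D1:**
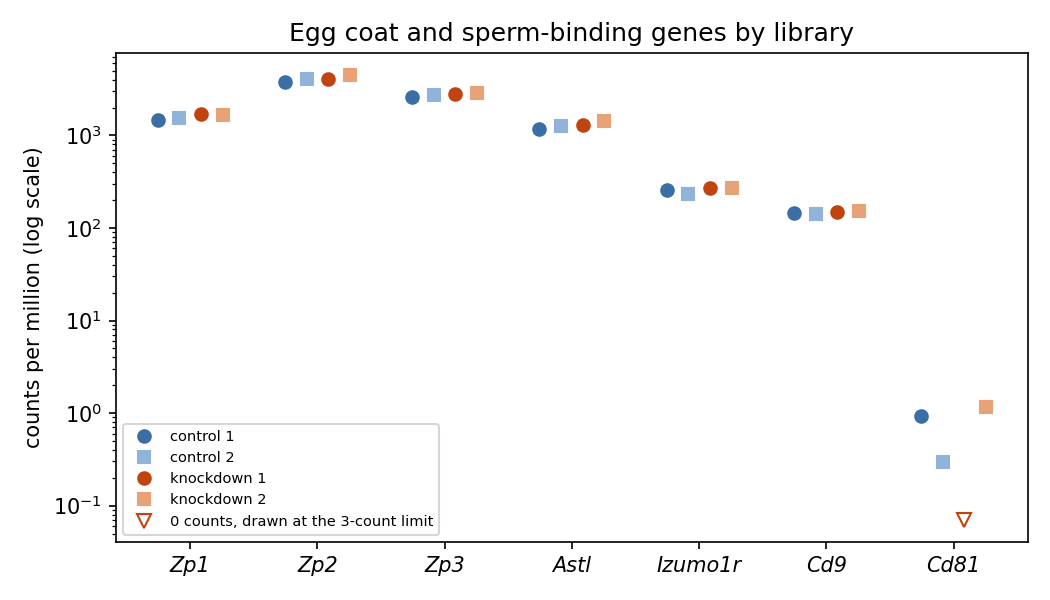
CPM (log axis) of the 7 genes in each library, with controls in blue and knockdowns in orange and 1 point per library; an open triangle marks 0 counts and is drawn at the limit of 3 counts. The 3 zona genes and Astl sit between 1162 and 4466 CPM, Izumo1r and Cd9 between 140 and 271, and Cd81 between 0 and 1.17.

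The bases upstream of the start sites are printed for genes at both ends of this range: Zp3 and Astl, which are among the most abundant, and the tetraspanin pair Cd9 and Cd81, which differ most. They come from RefSeq (GRCm38.p6), where 5 of the 7 genes matched; capitals mark matches of CANNTG, the E-box to which FIGLA, a regulator of the zona genes, is known to bind with its partner, and of TATAAG or TATAAA, on either strand. Each run ends before the first annotated base of the transcript. Zp3 lies at chr5:135979855-135980098 on the plus strand, the internal start of Astl at chr2:127341386-127341629 on the plus strand, Cd9 at chr6:125494792-125495010 on the minus strand and Cd81 at chr7:143052500-143052738 on the plus strand.
Zp3: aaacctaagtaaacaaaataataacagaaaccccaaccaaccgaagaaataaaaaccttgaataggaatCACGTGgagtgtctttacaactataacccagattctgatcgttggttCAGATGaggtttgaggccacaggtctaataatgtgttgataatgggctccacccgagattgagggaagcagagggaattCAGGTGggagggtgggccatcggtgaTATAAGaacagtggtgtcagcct
Astl: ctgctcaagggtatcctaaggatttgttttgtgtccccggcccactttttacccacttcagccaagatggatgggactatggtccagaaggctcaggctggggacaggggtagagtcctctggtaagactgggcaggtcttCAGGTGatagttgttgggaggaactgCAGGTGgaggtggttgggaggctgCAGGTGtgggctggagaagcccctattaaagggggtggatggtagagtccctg
Cd9: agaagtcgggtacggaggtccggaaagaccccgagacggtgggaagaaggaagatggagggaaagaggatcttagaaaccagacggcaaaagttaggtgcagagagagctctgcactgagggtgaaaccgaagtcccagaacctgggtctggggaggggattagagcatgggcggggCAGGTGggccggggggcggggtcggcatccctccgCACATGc
Cd81: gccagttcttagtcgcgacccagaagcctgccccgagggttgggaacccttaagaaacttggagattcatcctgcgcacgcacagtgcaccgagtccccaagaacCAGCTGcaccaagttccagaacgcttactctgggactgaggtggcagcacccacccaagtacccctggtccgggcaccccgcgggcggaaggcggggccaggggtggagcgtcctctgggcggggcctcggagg

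In the Zp3 sequence CACGTG began 181 bases, CAGATG 134 bases and CAGGTG 55 bases before the RefSeq start, and TATAAG began 29 bases before it. CANNTG of any kind was found in 66.2% of all 32851 RefSeq promoters searched over the same 250 bases, at least 3 matches of it in 12.2%, CACGTG in 6.0% and TATAAG in 6.6%. Astl has a start upstream of its other transcripts, whose window held no match of CANNTG, and the internal start, whose window held CAGGTG at 109, 83 and 59 bases before the start. CAGGTG, read on both strands and thus including CACCTG, occurred in 17.2% of promoters at least once and in 0.2% at least 3 times. Cd9 held CAGGTG 73 bases, CACATG 38 bases and CAGCTG 25 bases before its RefSeq start; the last of these lies past the first annotated base and is not printed. Cd81 held CAGCTG 145 bases before its start, a sequence found in 13.0% of promoters, and Izumo1r held CACCTG 57 bases before its RefSeq start, inside a GENCODE transcript that begins 182 bases upstream of that start. These matches describe letters only, and the counts cannot tell which start of Astl was used.

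None of the 7 genes passed edgeR's threshold of an adjusted p under 0.05 between knockdown and control; 0.0063% of the 15868 tested genes did, which is Parp12 alone. All 7 passed the filter on low counts, Cd81 through 3 of its libraries. For 6 of the 7 genes both knockdown libraries lay above both controls, where 18.0% of all tested genes did so and 16.8% lay wholly below, as none of the 7 did. The log2 fold change was above 0 for the same 6 genes, and for 50.4% of all tested genes and 45.5% of those over 100 CPM. Of 93 genes with a mean over 1000 CPM, to which the zona genes and Astl belong, 37.6% had both knockdown libraries above both controls and 64.5% had a log2 fold change above 0, with a median of 0.034. Of genes over 100 CPM 17.3% lay wholly above. The median log2 fold change of the 7 genes was 0.12, beside 0.0033 for all tested genes and -0.014 for those over 100 CPM. At an unadjusted p under 0.05 edgeR listed 3 of the 7, all with the knockdown higher, where it listed 2.94% of all genes and 2.93% of genes over 100 CPM in that direction and 2.57% of all genes in the other. Each library is bulk RNA scaled to its own total, so neither the number of oocytes nor the RNA per oocyte can be read from these values. A change in RNA per oocyte that all genes share would not show.

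Zp1, whose product cross-links the filaments of the coat, had 1472 and 1558 CPM in the control libraries and 1714 and 1656 CPM after knockdown. Both knockdowns were above both controls, with replicate 1 the highest. The means were 1515 ± 60.6 and 1685 ± 40.9 CPM (SD, n = 2 each), a log2 fold change of 0.15 (SE 0.06, 95% interval 0.03 to 0.27; adjusted p 0.835 by edgeR). By DESeq2, which called 1.39% of the 21358 genes it tested, Zp1 was the only 1 of the 7 genes called, with a log2 fold change of 0.15 and an adjusted p of 0.0323. The gene lies at chr19:10914287-10920632 of mm10, minus strand, and its counts were collected over 1981 exonic bases.

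Zp2, which carries the sperm-binding part of the coat and the site that ovastacin cleaves, was the most abundant of the 7 by counts, ranking 8th of all genes. It had 3766 and 4072 CPM in the control libraries and 4079 and 4466 CPM after knockdown. The groups did not overlap, but control replicate 2 and knockdown replicate 1 were nearly level. edgeR gave a log2 fold change of 0.12 (SE 0.06, 95% interval 0.003 to 0.24; adjusted p 0.835). Without knockdown replicate 2 it was 0.06, and without knockdown replicate 1 it was 0.19, so the size depended on single libraries. Zp2 lies at chr7:120126772-120145291 of mm10, minus strand, over 2724 exonic bases.

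Zp3, the partner of ZP2 in the filaments, had 2608 and 2759 CPM in the control libraries and 2832 and 2875 CPM after knockdown. Both knockdowns were again above both controls, and they were closer to each other than the controls were. Its log2 fold change by edgeR was 0.09 (SE 0.05, 95% interval -0.02 to 0.20; adjusted p 0.841). The gene lies at chr5:135980099-135988624 of mm10, plus strand, over 1323 exonic bases. For Zp2, Zp3 and Astl the 4 libraries stood in 1 order, from control replicate 1 through control replicate 2 and knockdown replicate 1 to knockdown replicate 2.

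The proportions of the 3 zona messenger RNAs, which do not depend on the scaling between libraries, were close in all 4 libraries. Per length, Zp3 made up 48.1% and 47.8% of their summed level in the control libraries and 47.5% and 46.8% after knockdown. Zp2 made up 33.8% and 34.2% in the control libraries and 33.2% and 35.3% after knockdown. Zp1 made up 18.1% and 18.0% in the control libraries and 19.2% and 18.0% after knockdown. The shares of Zp1 and Zp2 overlapped between the groups, and Zp3's share was lower in both knockdowns than in both controls (mean 47.1% ± 0.557 against 47.9% ± 0.255, SD, n = 2 each; no test was made). Knockdown replicate 1 held the highest share of Zp1 and the lowest of Zp2. The ratio of Zp3 to Zp2 per length ran from 1.33 to 1.43 and that of Zp3 to Zp1 from 2.47 to 2.65.

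**Figure D2:**
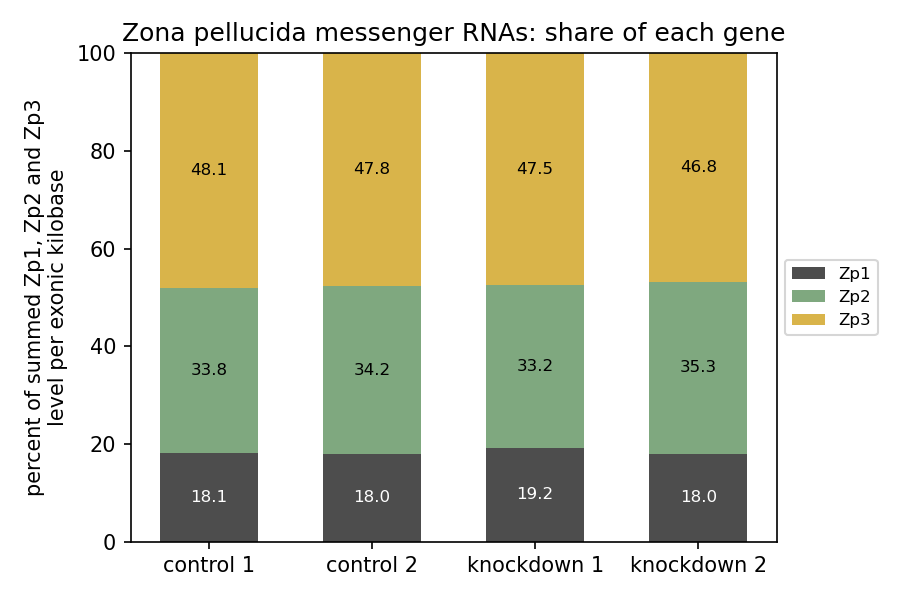
Stacked bars, 1 per library, show the percent of the summed level per exonic kilobase of Zp1, Zp2 and Zp3 that each gene took, on an axis from 0 to 100%. Zp3 took 46.8% to 48.1%, Zp2 33.2% to 35.3% and Zp1 18.0% to 19.2%.

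Astl, the cortical granule protease, had 1162 and 1272 CPM in the control libraries and 1286 and 1423 CPM after knockdown. The highest control and the lowest knockdown were again nearly level. edgeR gave a log2 fold change of 0.15 (SE 0.07, 95% interval 0.01 to 0.30; adjusted p 0.835). Without knockdown replicate 2 it was 0.08 and without knockdown replicate 1 it was 0.23. Within each library Zp2, the substrate, was 2.95 to 3.05 times as high as Astl per length, a ratio that varied less between libraries than that of Zp2 to Zp1 (1.73 to 1.96). Astl lies at chr2:127338639-127357651 of mm10, plus strand, over 2560 exonic bases.

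Izumo1r, the gene of the sperm receptor JUNO, had 258 and 233 CPM in the control libraries and 271 and 269 CPM after knockdown. Both knockdowns were above both controls and almost equal, and control replicate 1 was nearer to them than to control replicate 2. Its log2 fold change by edgeR was 0.13 (SE 0.09, 95% interval -0.06 to 0.33; adjusted p 0.873). Without control replicate 1 it was 0.23, and without control replicate 2 it was 0.05. Izumo1r lies at chr9:14885814-14903949 of mm10, minus strand. The exons of its 5 annotated transcripts together cover 2320 bases while the longest transcript has 1291.

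Cd9, the tetraspanin needed for sperm fusion, had 144 and 140 CPM in the control libraries and 147 and 154 CPM after knockdown. The knockdowns were above the controls by a few CPM. edgeR gave a log2 fold change of 0.08 (SE 0.11, 95% interval -0.15 to 0.31; adjusted p 0.957). Cd9 lies at chr6:125460266-125494791 of mm10, minus strand, over 2044 exonic bases. The antisense gene Gm26728 overlaps 218 of its exonic bases on the other strand and had at most 1 count in a library. Of the 50-base stretches of Cd9's coding transcript, searched on both strands, 15.5% also occur in other annotated transcripts, those of Gm26728 and of Cd9-ps. Over all 2044 exonic bases 14.4% of stretches occur in transcripts of 173 other genes. Gm26728 shares 8.48% of the stretches, which includes the overlap on the other strand, and Cd9-ps shares 0.703%. Part of the counts of Cd9 is therefore uncertain, and how large a part was not tested.

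Cd81 was close to absent. Its counts were 42 and 12 in the control libraries and 0 and 42 after knockdown, or 0.929, 0.293, 0 and 1.17 CPM. The groups overlapped fully, and the highest and the lowest value were both in the knockdowns. The 95% exact Poisson intervals of the controls, 0.669 to 1.26 and 0.151 to 0.512 CPM, did not meet, so these libraries differed by more than counting error. A count of 0 allowed up to 0.0705 CPM in knockdown replicate 1, taking 3 counts as the limit. By edgeR its log2 fold change was -0.23 (95% interval -3.55 to 3.09; adjusted p 0.991). As a fold the interval runs from 0.0857 to 8.53. The coefficient of variation between replicates was 73.6% in the controls and 141% in the knockdowns, where counting alone gives 19.2% and 21.8%. The sign reversed when either control replicate 1 or knockdown replicate 1 was left out, to 0.87 and 0.90. Cd81 lies at chr7:143052739-143067934 of mm10, plus strand, over 2879 exonic bases. R74862, a gene on the other strand that shares 104 of these bases, was at 0 in all 4 libraries.

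**Figure D3:**
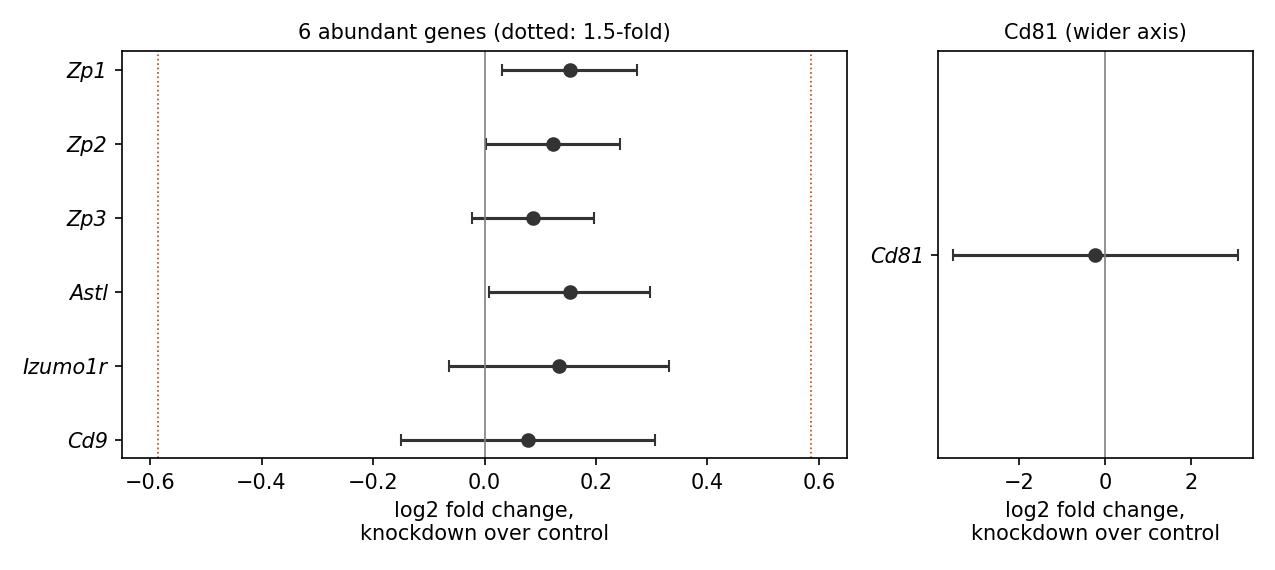
Points are log2 fold changes of knockdown over control from edgeR with their 95% intervals, for 6 genes on the left, where dotted lines mark a 1.5-fold change, and for Cd81 on the right with a wider axis. The 6 intervals lie between -0.15 and 0.33, and that of Cd81 runs from -3.55 to 3.09.

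For the 6 genes other than Cd81 the intervals of the change relative to the library total were narrow. They rest on 2 libraries a group, whose spread may be technical, and do not cover a change in total RNA per oocyte. The 95% intervals of all 6 excluded a 1.5-fold change in either direction, which those of 28.8% of all tested genes did, and with it a 2-fold change, excluded for 46.7%. Both shares are over genes of all levels. They were not taken for genes over 100 CPM alone, to which the 6 belong. For 5 of them, all but Izumo1r, the interval also excluded a 1.25-fold change, as it did for 9.11% of all tested genes and 56.9% of those over 100 CPM. That count rested on single libraries: it was 2 without knockdown replicate 1 (Zp1 and Zp3) and 3 without knockdown replicate 2 (Zp2, Zp3 and Astl), while all 6 excluded a 1.5-fold change with any 1 library left out. The upper ends of the intervals corresponded to 1.21-fold for Zp1, 1.18-fold for Zp2, 1.15-fold for Zp3, 1.23-fold for Astl, 1.26-fold for Izumo1r and 1.24-fold for Cd9. Replicates of 1 group differed by more than counting error for most of these genes: the coefficient of variation of Zp2 was 5.52% in the controls and 6.41% in the knockdowns, where counting alone gives about 0.244% and 0.245%. For Izumo1r in the knockdowns it was 0.376%, below the 0.972% of counting error.

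**Figure D4:**
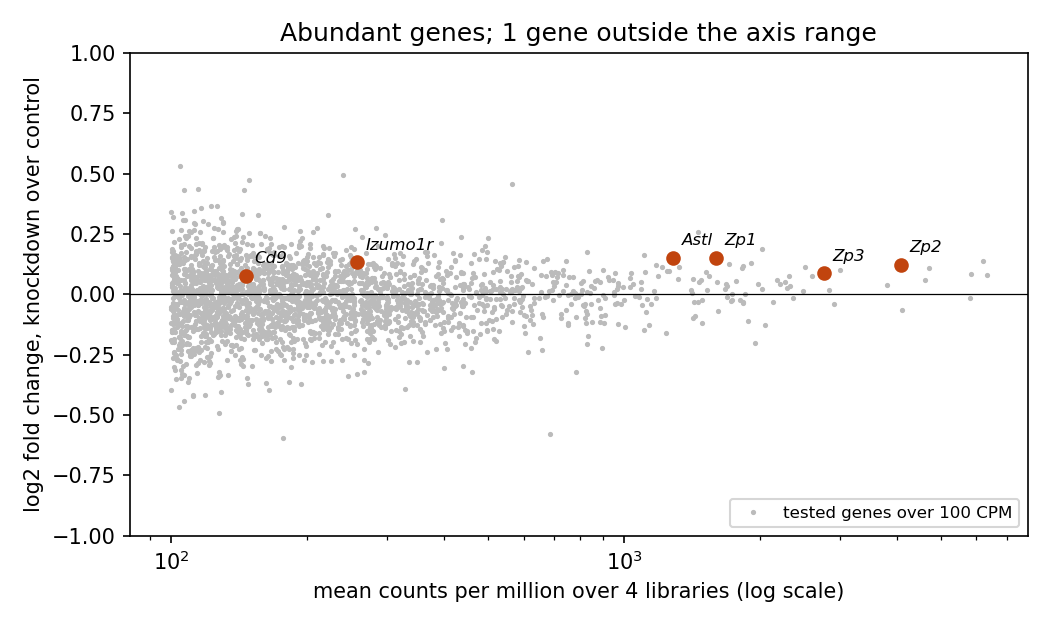
Each grey dot is 1 of 2427 tested genes with a mean over 100 CPM, placed by mean CPM (log axis) and log2 fold change, and orange dots are the 6 abundant egg coat and sperm-binding genes; Parp12 lies outside the axis range. The 6 genes sit between 0.08 and 0.15, and their place in the spread of genes of like abundance was not measured.

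Genes of known regulators of the zona genes covered a wide range of levels. FIGLA, which pairs with E12 from Tcf3, and NOBOX and LHX8 are transcription factors of the oocyte, and all 10 of 10 listed genes were tested. The lowest, Sohlh1, had 0.531 and 0.879 CPM in the control libraries and 0.282 and 4.19 CPM after knockdown, near the level of Cd81 in 3 of them. None passed the threshold, with 4 log2 fold changes above 0, 6 below and a median of -0.05. Figla had the smallest p, with 34.4 and 35.7 CPM in the control libraries and 29.2 and 20.3 CPM after knockdown. Its knockdown libraries were both below the controls, with a log2 fold change of -0.48 (SE 0.24) and an adjusted p of 0.835 by edgeR, while the zona genes lay slightly above. Nobox, the most abundant, had 787 and 893 CPM in the control libraries and 832 and 857 CPM after knockdown, which overlapped.

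Genes for folding, cleaving and glycosylating secreted coat proteins had 12 of 13 members tested and no call, with a median log2 fold change of 0.07 and 8 above 0. At an unadjusted p under 0.05 edgeR listed 2 of the 12, both higher, beside 2.94% of all tested genes in that direction. B3gnt2, which extends lactosamine chains, had the smallest p, with 5.37 and 6.13 CPM in the control libraries and 13.5 and 11.9 CPM after knockdown, a log2 fold change of 1.15 (SE 0.41) and an adjusted p of 0.835 by edgeR. Its groups did not overlap, at levels far below those of the zona genes. Calr, the chaperone calreticulin of the endoplasmic reticulum, had 672 and 746 CPM in the control libraries and 753 and 770 CPM after knockdown.

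Genes for the exocytosis of granules such as those that store ovastacin had 11 of 13 members tested, no call and a median log2 fold change of 0.11, with 7 above 0. At an unadjusted p under 0.05 edgeR listed 1 higher and 1 lower of the 11, beside 2.94% and 2.57% of all tested genes; they were Vamp7 and Stx4a. Vamp7, a vesicle SNARE, had the smallest p, with 36.0 and 38.0 CPM in the control libraries and 57.0 and 55.4 CPM after knockdown. Its knockdowns were both above the controls, with a log2 fold change of 0.60 (SE 0.18) and an adjusted p of 0.835 by edgeR. Nsf, the ATPase that takes SNARE complexes apart, had 803 and 903 CPM in the control libraries and 869 and 908 CPM after knockdown, which overlapped. Rab27b was at 0 in all 4 libraries.

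Astl stood almost alone in its family. The astacin metalloproteases also include Bmp1, Tll1, Tll2, Mep1a and Mep1b, and Astl took 98.9% of the mean summed level per length of the 6 genes. Tll1 followed with 19.5 to 25.5 CPM and a log2 fold change of -0.10. Mep1a, which had the smallest p of the 3 tested, was at 1.24 and 0 CPM in the control libraries and 0 and 0.251 CPM after knockdown. Among 14 genes with a zona pellucida domain, Zp3, Zp2 and Zp1 took 45.8%, 32.9% and 17.7% of the summed level per length. Umodl1 took a further 3.46%, with 868 and 794 CPM in the control libraries and 824 and 794 CPM after knockdown, and Dmbt1, with the smallest p of the 4 others tested, had 9.55 to 15.8 CPM. Oit3, Umod, Eng and Cuzd1 were at 0.

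JUNO belongs to the folate receptors, and Izumo1r was the only 1 of its 3 listed genes with counts: Folr1 and Folr2 were at 0 in all 4 libraries. Genes that build and attach the GPI anchor had 25 of 27 members in the table tested, no call, 13 log2 fold changes above 0 and 12 below, and a median of 0.01. Pigp, with the smallest p, had 22.2 and 24.99 CPM in the control libraries and 18.5 and 11.03 CPM after knockdown, a log2 fold change of -0.65 (SE 0.31) and an adjusted p of 0.835 by edgeR. Both of its knockdowns were below its controls. Pigq, the most abundant, had 133 and 164 CPM in the control libraries and 143 and 158 CPM after knockdown.

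Within the tetraspanins, small membrane proteins that organise their partners in the plasma membrane, Cd9 ranked second and Cd81 17th of 31 genes by level per length. Cd9 took 23.4% to 24.7% of the family's summed level in a library, and Cd81 took 0% to 0.134%. Tspan14 was above Cd9 in each library, with 95.1 to 107 against 68.7 to 75.4 CPM per kilobase. Besides the pair, 16 of 29 listed tetraspanins were tested and none passed, with 6 log2 fold changes above 0, 10 below and a median of -0.10. At an unadjusted p under 0.05 edgeR listed 2 of the 16 higher (Tspan3 and Tspan9) and 0 lower. Of all tested genes it listed 2.94% higher and 2.57% lower. It listed none of the zona gene regulators, the further zona domain and astacin genes, the GPI anchor genes or the tetraspanin partners. Tspan9 had 34.3 and 36.0 CPM in the control libraries and 57.3 and 41.9 CPM after knockdown. Its log2 fold change was 0.51, with an adjusted p of 0.835 by edgeR. Tspan14 had 282 and 267 CPM in the control libraries and 261 and 252 CPM after knockdown. Tspan3, with the smallest p, had 102 and 128 CPM in the control libraries and 136 and 150 CPM after knockdown, a log2 fold change of 0.32 (SE 0.13) and an adjusted p of 0.835 by edgeR. Cd63 had at most 2 counts in a library, and 6 genes (Tspan11, Tspan32, Cd53, Upk1b, Prph2 and Rom1) were at 0. Among 10 partner genes of tetraspanins, 9 were tested, none passed and the median was 0.11. Adam10, a membrane protease that tetraspanins escort and both the most abundant and the one with the smallest p, had 240 and 252 CPM in the control libraries and 238 and 206 CPM after knockdown.

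**Figure D5:**
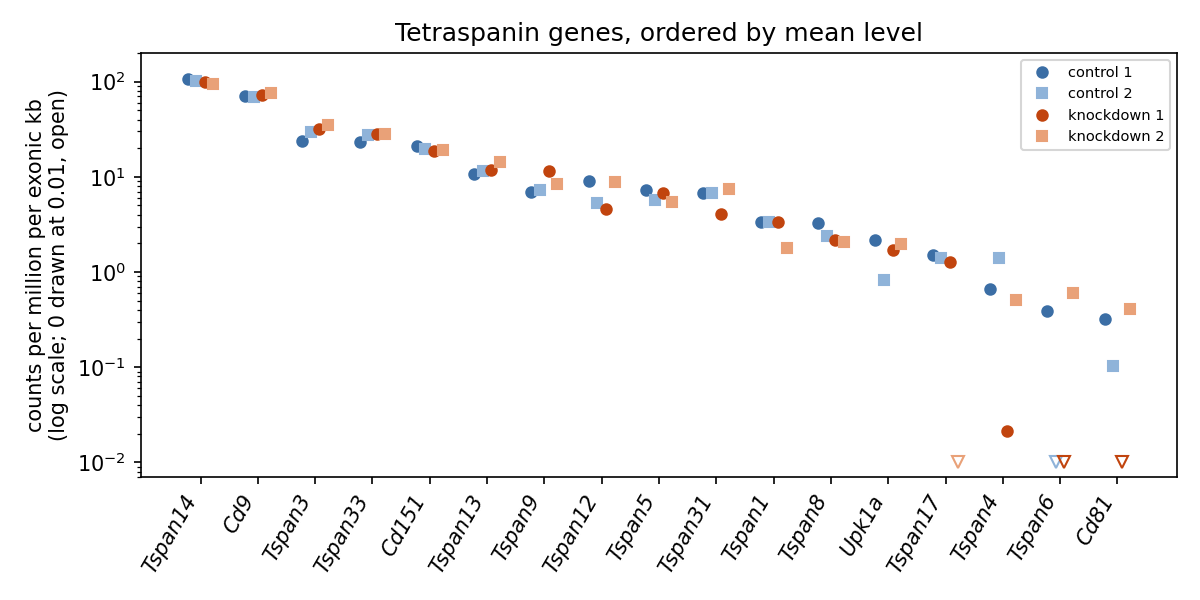
Levels of the 17 highest tetraspanin genes per library, in CPM per exonic kilobase on a log axis, ordered by mean over the 4 libraries; open triangles mark 0. Tspan14 and Cd9 lead at 68.7 to 107, and Cd81 stands last of those drawn at 0 to 0.407.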

How the data were processed

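Poly(A) RNA of mouse oocytes was measured in 4 libraries, grouped by their titles into 2 controls and 2 Parp12 knockdowns. The authors deposited raw read counts per gene with gene coordinates and summed exon length, per the file headers. Per the submitters' processing notes the build was mm10 and the tools were featureCounts 2.0.0, STAR 2.7.5b, DESeq2 1.28.1 and Trim Galore 0.6.4, with no roles. The sources used here give neither the strand setting nor the treatment of reads with several alignments. Other values per gene deposited by the authors, the exon length, were used to set levels per length. Symbols, coordinates and transcripts came from GENCODE M21, where all 7 genes had the deposited start and end.

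Counts were tested in R 4.3.3 with edgeR 4.0.16 (filterByExpr with a minimum count of 10 and total of 15, TMM factors between 0.991 and 1.01, glmQLFit with robust and its newer, non-legacy fit, glmQLFTest, group as the only term). P-values are two-sided and Benjamini-Hochberg adjusted over all 15868 tested genes at 0.05, and a fold change's SE came from its F statistic. DESeq2 1.42.0 and limma-voom (limma 3.58.1) were alternatives. DESeq2 ran on all 21358 genes with counts in any library, without the edgeR filter. Its share of calls is over all of these genes, also any that its own filter left without an adjusted p. The fit was tested on simulated data. A chi-square of replicate pairs gave 38.0 and 32.6 per degree of freedom, far above sampling noise. No label says that replicates came from separate animals, so the spread behind each p-value may be technical, and intervals of counts cover counting error only. An exact permutation test of 2 against 2 cannot go below 0.333 and was not used.

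The genes, lists and tests were chosen with earlier results of these data known. Besides the 7 genes and Parp12, the text names in each list the tested genes with the smallest p and the highest mean CPM (no list held a call), and the 5 genes nearest in profile, of which 1 is not reported here. Other genes named were chosen after their values were seen.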

Additional observations from a re-analysis of the deposited data

How the results depend on the processing

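The log2 fold changes of Zp1, Zp2, Zp3, Astl, Izumo1r and Cd9 were above 0 under all 13 alternatives, and 0 of these 6 genes was called except Zp1 by DESeq2 (0.15), which made 1 of the 7 genes called. Leaving out 1 library gave no call among the 7, and Cd81 ran from -7.76 to 0.90, reversing to 0.87 without control replicate 1 and to 0.90 without knockdown replicate 1. Among all genes edgeR called 1; the count was 8 when 1 CPM was required in both libraries of either group, 297 with DESeq2, 0 with limma-voom (747 at an unadjusted p under 0.05), and 1 to 2 with 1 library left out. With a replicate block in the model 0 of the 7 were called, Zp1 had a log2 fold change of 0.15 and an adjusted p of 0.942, and 1 gene was called in all. In the block model the SE was 0.038 for Zp2, 0.050 for Astl and 1.89 for Cd81, in place of 0.056, 0.067 and 1.56. No label says that the replicate numbers mark a shared animal or day. Over all tested genes the deviations of same-numbered libraries correlated at 0.00802, but 2 libraries a group cannot settle whether they were paired. With 1 CPM as the filter Cd81 was not tested. With the longest transcript as the length, mean levels per kilobase were 1712 for Zp2, 541 for Astl, 199.8 for Izumo1r and 119 for Cd9, and mean shares of the zona sum were 17.6% for Zp1, 37.0% for Zp2 and 45.3% for Zp3, in place of 18.3%, 34.1% and 47.5%. Scaled to the sum of per-length values (as in TPM) the levels were 2770.3 for Zp1, 5156 for Zp2, 7176 for Zp3, 1723 for Astl, 381 for Izumo1r, 246 for Cd9 and 0.714 for Cd81, by construction of that unit. Median-of-ratios scaling left 0 calls in the lists.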

Other observations

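Of 20 listed genes of the sperm side of fertilization, 11 had counts and 9 were at 0 in all 4 libraries, among them Izumo1, the sperm partner of JUNO, Tmem95 and Acr. The list summed to 36.0 to 43.6 CPM per library. Most of it came from Spam1, which encodes the sperm hyaluronidase PH-20, with 24.1 and 18.2 CPM in the control libraries and 21.7 and 24.0 CPM after knockdown. Prm2, a protamine of spermatids, had 203, 192, 239 and 220 counts in the 4 libraries in the same order. Zpbp, the member with the smallest p, was read 24 and 48 times in the controls, against 0 times in each knockdown library. Of the 7 tested, 0 passed edgeR's threshold and 0 had an unadjusted p under 0.05.

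Among the genes whose pattern over the 4 libraries was nearest to the mean of the 7 genes, by root mean square difference of centred log2 CPM among 2421 genes over 100 CPM, were Selenot (0.0851), Stat3 (0.0922), Gm49755 (0.109) and Map3k5 (0.126). Cd81 lay 1.58 from that mean and the other 6 genes 0.245 to 0.306, all farther than the genes just named, whose groups overlapped. The mean of all 7 thus did not describe the 6 abundant genes. With Cd81 left out, a choice made after the data were seen, the nearest were Bicd2 (0.00456), Gm13084 (0.00878), Cct2 (0.00895), Rraga (0.0105) and Tfg (0.0109). The 6 genes themselves lay 0.0257 to 0.0695 from their mean, and between 52 and 522 of the 2421 genes were nearer to it than 1 of them.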
